A study of Mus musculus with 12 samples.

Results

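The epidermal growth factor family of mouse keratinocytes is described here through 10 genes: the ligands Areg, Ereg, Epgn, Tgfa, Btc and Hbegf, the receptors Egfr, Erbb2 and Erbb3, and the receptor inhibitor Errfi1. The genes were chosen by symbol as members of this signalling family, with earlier results of these data known. Each of the 10, of 36706 genes with a cluster carrying 1 symbol, was represented by 1 transcript cluster, the group of array probes that is summarised into 1 signal. The study sorted keratinocytes, the epithelial cells of the epidermis, from the skin of FVB/N mice on postnatal day 4, and its title names progerin, the truncated lamin A of Hutchinson-Gilford progeria. The 12 Affymetrix MTA-1_0 arrays formed 4 groups of 3: bitransgenic (bt) basal cells, wild-type (wt) basal cells, bt suprabasal cells and wt suprabasal cells. The labels call the bitransgenic genotype BT and name neither the transgenes nor the promoter that drives them, and they mark the basal sort as high and the suprabasal sort as low without naming the surface protein. Each array carries a code, and 5 codes occur in both layers, 3 in wt and 2 in bt. Nothing in the labels says that the arrays of a group came from different animals, so p-values measure the spread between these arrays.

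The 6 ligands are made as membrane-anchored precursors that proteases cut at the cell surface, and the freed peptides bind EGFR on the same or neighbouring cells. Bound EGFR pairs with another EGFR or with ERBB2, which has no known ligand of its own, or ERBB3, whose kinase is nearly inactive and which signals through its partners. The receptors then drive the RAS and PI3K-AKT pathways, and the induced inhibitor encoded by Errfi1 closes the loop. In epidermis this pathway is known for keratinocyte growth, migration in wounds and hair follicle form; amphiregulin (Areg) is an abundant autocrine factor of human keratinocytes, and loss of Tgfa gives mice a wavy coat.

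A group of 4 ligand genes are neighbours on chromosome 5 (mm10). Epgn lies at chr5:91027464-91035215, Ereg at chr5:91074617-91093649 and Areg at chr5:91139615-91148432, all on the plus strand, and Btc lies at chr5:91357261-91402994 on the minus strand. The 4 clusters span 375.5 kb, with 208.8 kb between Areg and Btc. Tgfa is at chr6:86195251-86275449, Errfi1 at chr4:150853919-150868892 and Erbb3 at chr10:128567523-128589652. Egfr and Erbb2 share chromosome 11, at chr11:16752203-16918158 and chr11:98412470-98437716. These positions are those of the whole clusters, exons and introns together.

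The promoters of Areg, Epgn and Tgfa are shown because the signals of these ligands moved together from array to array, and that of Btc because its signal differed between layers the opposite way to Epgn. Each line gives the 250 bases before the start of the RefSeq gene, 5′ to 3′ on the gene's own strand, from GRCm38.p6, the assembly that mm10 names. Capitals mark matches to the searched motifs. Promoters of 7 of the 10 genes were examined, and the rest of the 10 were left out.
Areg: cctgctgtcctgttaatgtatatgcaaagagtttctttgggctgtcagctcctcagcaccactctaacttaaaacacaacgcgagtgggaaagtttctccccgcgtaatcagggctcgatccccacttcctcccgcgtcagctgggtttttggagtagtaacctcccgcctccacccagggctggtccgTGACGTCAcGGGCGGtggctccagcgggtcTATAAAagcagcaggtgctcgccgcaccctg
Epgn: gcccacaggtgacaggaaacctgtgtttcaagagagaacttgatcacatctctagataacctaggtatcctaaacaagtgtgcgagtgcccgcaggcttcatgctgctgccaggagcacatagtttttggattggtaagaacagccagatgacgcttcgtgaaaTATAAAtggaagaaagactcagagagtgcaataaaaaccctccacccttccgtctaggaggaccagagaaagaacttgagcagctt
Tgfa: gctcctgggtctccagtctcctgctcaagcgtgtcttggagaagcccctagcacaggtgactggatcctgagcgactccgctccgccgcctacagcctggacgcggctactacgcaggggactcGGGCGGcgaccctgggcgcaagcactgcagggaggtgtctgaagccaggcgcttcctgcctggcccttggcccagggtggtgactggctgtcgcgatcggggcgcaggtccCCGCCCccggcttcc
Btc: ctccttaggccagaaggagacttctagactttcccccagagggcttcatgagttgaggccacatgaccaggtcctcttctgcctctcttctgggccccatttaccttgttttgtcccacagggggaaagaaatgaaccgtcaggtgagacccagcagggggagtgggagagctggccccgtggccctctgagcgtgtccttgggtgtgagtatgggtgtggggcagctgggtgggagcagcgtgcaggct
The Areg window is chr5:91139349-91139598 (plus strand), the Epgn window chr5:91027267-91027516 (plus), the Tgfa window chr6:86194972-86195221 (plus) and the Btc window chr5:91402995-91403244 (minus). A set of 5 motifs was searched on both strands of all 32851 windows. The letters TGANTCA, bound by AP-1, were present in 6.75% of windows. The letters TGACGTCA, the cyclic AMP response element (CRE), were present in 1.55%. The GC box, with the letters GGGCGG, was present in 32.7%, and the TATA box, with the letters TATAAA, in 12.4%. The STAT motif, with the letters TTCNNNGAA, was present in 7.02%. Areg held a CRE starting 61 bases before the start, a GC box at 52 and a TATA box at 31. Epgn held a TATA box at 86, Tgfa held GC boxes at 126 and 15, and Btc held none of the 5. Among the others, the second of 2 Errfi1 starts, chr4:150854820-150855069, also held a CRE, at 51 bases, with a TATA box at 28 and 3 GC boxes, of which 2 overlap. Egfr held 1 GC box and Erbb2 none. A match describes letters in this window only.

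The signals are log2 values on which all arrays have been given like distributions, and cluster medians lay between 5.28 and 5.46. A background mark was set on each array at the 95th percentile of its intronic control probe sets, and ran between 8.04 and 8.81. Between 7.14% and 12.3% of clusters lay above it. The 8 basal keratinocyte markers were above the mark on every basal array, and their mean log2 signal was 10.86 to 10.89 in bt basal cells, 11.01 to 11.2 in wt basal cells, 9.66 to 10.66 in bt suprabasal cells and 10.33 to 10.89 in wt suprabasal cells. Suprabasal keratinocyte markers averaged 10.03 to 10.6 in bt basal, 10.17 to 10.43 in wt basal, 10.96 to 11.15 in bt suprabasal and 10.73 to 11.42 in wt suprabasal cells, so both sorts held both marker sets. Melanocyte markers stood apart by layer: 0 or 1 of 8 was above the mark on the basal arrays, against 3 to 7 of 8 on the suprabasal arrays. The 3 upper hair follicle markers (Krt79, Krt17 and Sox9) were above the mark on all arrays and also stood apart by layer, with mean log2 signals of 10.53 to 10.97 in bt basal, 10.23 to 10.85 in wt basal, 11.29 to 11.57 in bt suprabasal and 11.31 to 11.68 in wt suprabasal cells. Among them Krt79 was called, lower in basal cells with a log2 difference of −2.06 on average over genotypes (limma adjusted p = 0.0234). The part of hair follicle cells in the layer differences of the family was not tested. Markers of Schwann cells, fibroblasts, immune cells, endothelium and Merkel cells were above the mark on no array. Among bt arrays, the 2 with code X721_05 had Ddx3y, a Y-linked gene, above Xist, as had all wt arrays, whereas the other 4 bt arrays had Xist above Ddx3y. Sex and genotype are therefore only partly separable, and among bt arrays sex pattern cannot be told apart from code X721_05. Any fit below with a term for sex pattern rests on the X721_05 arrays against the other bt arrays. Such a fit cannot say whether a change comes from sex or from that code.

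The receptors and Errfi1 were above the mark on all 12 arrays, and Hbegf on 11. Epgn was above it on 7 arrays, Tgfa on 4 and Areg on 3, of which 2 were bt basal and 1 was bt suprabasal. Ereg and Btc were above it on none. Where all 3 arrays of a group have a gene at or under the mark, the gene is not above background in that group, so its signal gives only a bound and no fold is printed for it; log2 differences of such genes are differences of measured signals.

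**Figure D1:**
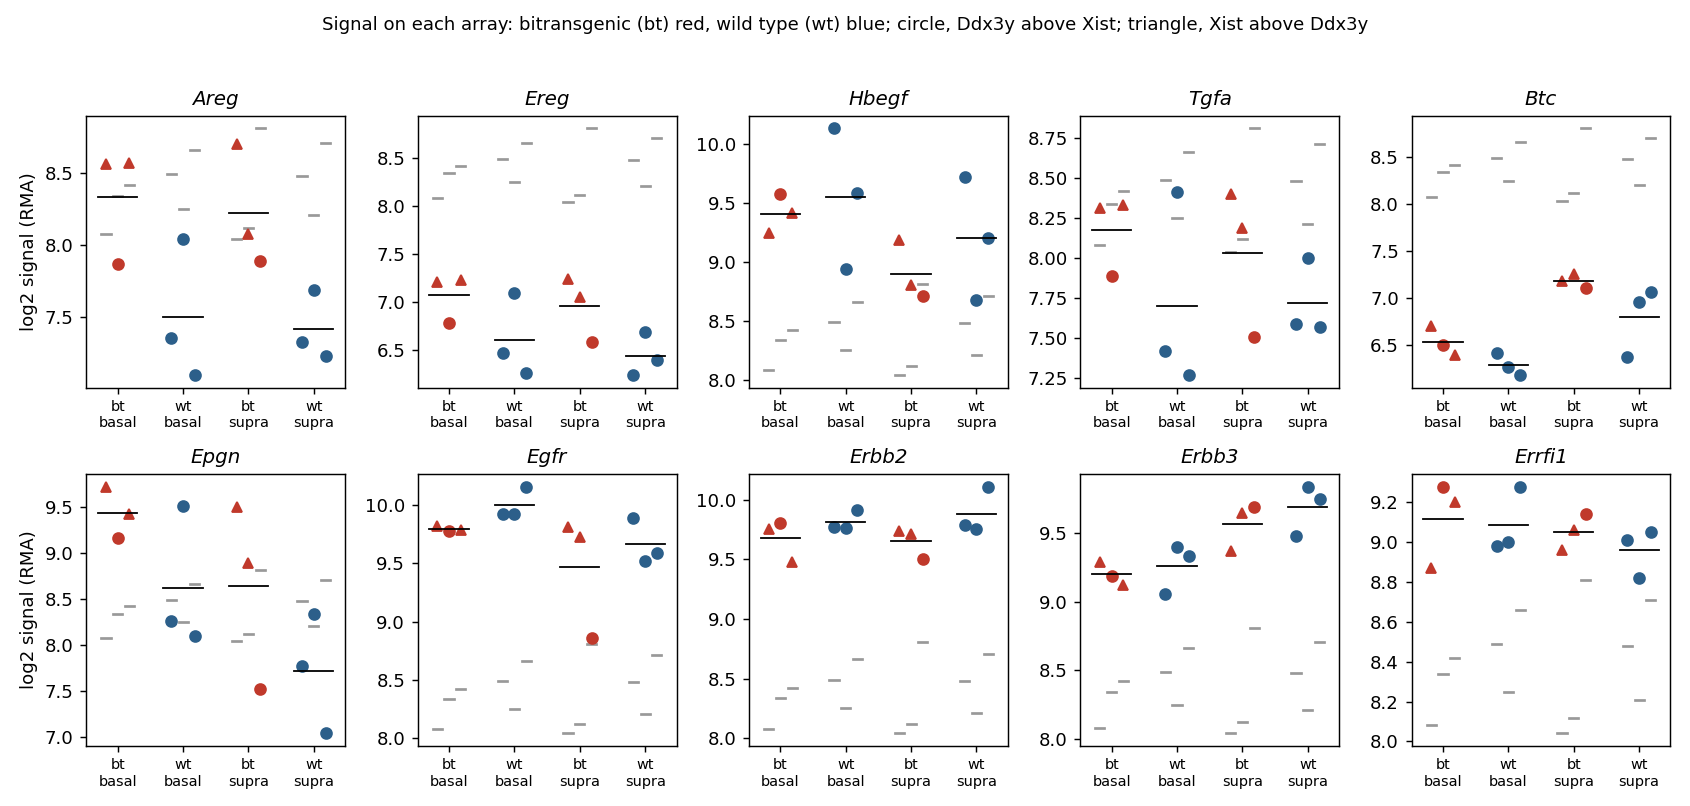
Log2 signal (RMA, vertical axis) of each gene on the 12 arrays, 3 per group, with the group mean as a black line and each array's background mark as a grey dash. Red is bitransgenic, blue is wild type, triangles are arrays with Xist above Ddx3y and circles those with Ddx3y above Xist; Egfr, Erbb2, Erbb3 and Errfi1 lie above the mark on every array, and Ereg and Btc on none.

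Between bt and wt cells, Areg, Ereg, Epgn, Tgfa, Btc and Errfi1 had the higher mean signal in bt cells of both layers, and Hbegf, Egfr, Erbb2 and Erbb3 the lower, but no gene of the family passed the test in either layer. Across all 65956 clusters the moderated test of limma called 0% in basal cells and 0% in suprabasal cells at an adjusted p under 0.05. At an unadjusted p under 0.05, 1 of the 10 genes counted in basal cells (Areg), where 13.1% of all clusters did, and 2 in suprabasal cells (Areg and Btc), where 5.22% did. The methods' t-test on the same log2 values called 0 of 10 in both layers, with 0 and 1 at an unadjusted p under 0.05. In these bulk samples, fewer cells of a type and less RNA per cell cannot be told apart.

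Areg, which encodes amphiregulin, had the smallest p of the 10 in both layers. In basal cells its log2 signal was 7.87, 8.56 and 8.57 on bt arrays, against 7.36, 8.04 and 7.10 on wt arrays. In suprabasal cells it was 7.89, 8.70 and 8.08 on bt arrays, against 7.33, 7.69 and 7.23 on wt arrays. The basal groups overlapped by 1 wt array, and the suprabasal groups did not overlap, all bt arrays being higher. Means in basal cells were 8.33 ± 0.40 in bt and 7.50 ± 0.49 in wt (SD, n = 3 each), and in suprabasal cells 8.22 ± 0.42 in bt and 7.42 ± 0.24 in wt (SD, n = 3 each). The log2 difference was 0.83 (95% interval 0.20 to 1.47; limma adjusted p = 0.293) in basal and 0.81 (0.17 to 1.44; limma adjusted p = 0.866) in suprabasal cells. Averaged over the layers it was 0.82 ± 0.20 (SE), rank 269 of 65956 clusters by p, with a limma adjusted p of 0.453. This fit counts the arrays of both layers under 1 code as independent, as do the other averages over layers. With code as a replicate block the Areg difference was 0.82, with a limma adjusted p of 0.601. Over the layers 5 of the 10 genes had an unadjusted p under 0.05 (Areg, Ereg, Btc, Epgn and Erbb2), as had 8.99% of all clusters, of which 0% were called. No wt array had Areg above the mark, so these values give no fold.

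Within bt cells Areg was lowest under 1 code. In each layer the X721_05 array, the bt array with Ddx3y above Xist, had the lowest Areg of the bt arrays, 7.87 in basal and 7.89 in suprabasal cells. With a term for the sex pattern in the fit, the mean difference over layers was 0.42 (limma adjusted p = 0.785), and without both X721_05 arrays it was 1.02 (limma adjusted p = 0.34). Over 21 other settings it ran between 0.42 and 1.02, with adjusted p between 0.0981 and 0.785. The authors' deposited values for all bt against all wt arrays also have Areg higher in bt, with the authors' p = 0.00458 and q = 0.771.

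Ereg, the epiregulin gene, had log2 signals of 6.78, 7.21 and 7.23 on bt basal arrays against 6.47, 7.09 and 6.26 on wt basal arrays. In suprabasal cells it had 6.58, 7.24 and 7.05 on bt arrays against 6.24, 6.69 and 6.40 on wt arrays. The groups overlapped in both layers, and every value lay under the background mark. The mean difference over layers was 0.49 ± 0.17 (SE; limma adjusted p = 0.487), and 0.16 with a term for sex pattern.

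Epgn, which encodes epigen, a ligand made by keratinocytes, spread most of the 10 genes. Its log2 signal was 9.16, 9.72 and 9.42 on bt basal arrays, against 8.26, 9.51 and 8.10 on wt basal arrays. In suprabasal cells it was 7.52, 9.50 and 8.89 on bt arrays, against 7.77, 8.34 and 7.04 on wt arrays. Both pairs of groups overlapped, through 1 high wt basal array (code X682_11) and 1 low bt suprabasal array (code X721_05). The log2 difference was 0.81 (−0.34 to 1.96; limma adjusted p = 0.517) in basal cells, a fold of 1.75. It was 0.92 (−0.23 to 2.07; limma adjusted p = 0.866) in suprabasal cells, a fold of 1.89. In each wt group Epgn was above the mark on 1 of 3 arrays, so these folds rest in part on signals under it. The mean over layers, 0.87, was 0.17 with a term for sex pattern.

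Tgfa encodes transforming growth factor alpha. Its signals were 7.89, 8.31 and 8.33 on bt basal arrays against 7.42, 8.41 and 7.27 on wt basal arrays. In suprabasal cells they were 7.51, 8.40 and 8.19 on bt arrays against 7.59, 8.0 and 7.57 on wt arrays. The groups overlapped in both layers. The mean difference over layers, 0.40 ± 0.22 (SE; limma adjusted p = 0.618), was −0.01 with a term for sex pattern.

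Hbegf, the heparin-binding ligand (chr18:36504927-36515805), ran the other way in its means, with more spread in wt than in bt cells. Basal signals were 9.57, 9.24 and 9.41 on bt arrays against 10.13, 8.94 and 9.58 on wt arrays. Suprabasal signals were 8.71, 9.18 and 8.80 on bt arrays against 9.72, 8.68 and 9.20 on wt arrays. The wt values enclosed the bt values in both layers, and the mean difference over layers was −0.22 ± 0.21 (SE; limma adjusted p = 0.806).

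Btc, the betacellulin gene, lay under the mark on every array. In suprabasal cells its signals did not overlap between genotypes, at 7.11, 7.18 and 7.26 in bt against 6.37, 6.96 and 7.07 in wt. In basal cells they did overlap, at 6.50, 6.70 and 6.39 in bt against 6.42, 6.27 and 6.18 in wt. The suprabasal log2 difference was 0.38 (0.03 to 0.74; limma adjusted p = 0.866).

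The receptors and their inhibitor had log2 differences of at most 0.23 either way between genotypes, and a term for sex pattern made that of Egfr larger. Egfr signals did not overlap in basal cells, at 9.78, 9.82 and 9.79 in bt against 9.92, 9.92 and 10.16 in wt, a log2 difference of −0.20 (−0.67 to 0.26; limma adjusted p = 0.696). In suprabasal cells they overlapped, at 8.86, 9.81 and 9.73 in bt against 9.89, 9.52 and 9.59 in wt, and the difference of −0.20 was 0.10 without both X721_05 arrays. With a term for sex pattern the Egfr difference was −0.52 in basal (limma adjusted p = 0.387) and −0.51 in suprabasal cells (limma adjusted p = 0.998). On average it was −0.51, against −0.20 without the term. The term takes the same value in both layers and rests on the X721_05 arrays against the other bt arrays. Among bt basal arrays Egfr barely differed by sex pattern (9.78 under X721_05, 9.82 and 9.79), and the low value was suprabasal (8.86). The −0.52 is therefore not seen in the basal values alone. Erbb2 signals did not overlap in suprabasal cells, at 9.50, 9.74 and 9.71 in bt against 9.79, 9.75 and 10.11 in wt, a difference of −0.23 (−0.49 to 0.02; limma adjusted p = 0.866). In basal cells Erbb2 was at 9.80, 9.75 and 9.48 in bt against 9.77, 9.76 and 9.91 in wt. The nearest Erbb2 values of the 2 suprabasal groups, 9.74 in bt and 9.75 in wt, were almost equal. Erbb3 differed by −0.06 in basal (−0.34 to 0.21) and −0.12 in suprabasal cells (−0.39 to 0.15), and Errfi1 by 0.03 (−0.23 to 0.29) and 0.09 (−0.17 to 0.36). The sex term moved the mean over layers of Errfi1 to 0.19, against 0.06 without it, and that of Erbb3 to −0.04, against −0.09.

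In all, 1 of 10 genes had basal groups that did not overlap (Egfr, lower in bt), where 16.8% of all clusters had, and 5.01% of all clusters were lower in bt. In suprabasal cells 3 of 10 had groups that did not overlap, where 12.3% of all clusters had: Areg and Btc were higher in bt (2.52% of clusters) and Erbb2 lower (9.79%). Counts of 1 and 3 of 10 are too small to set the family apart from the background.

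**Figure D2:**
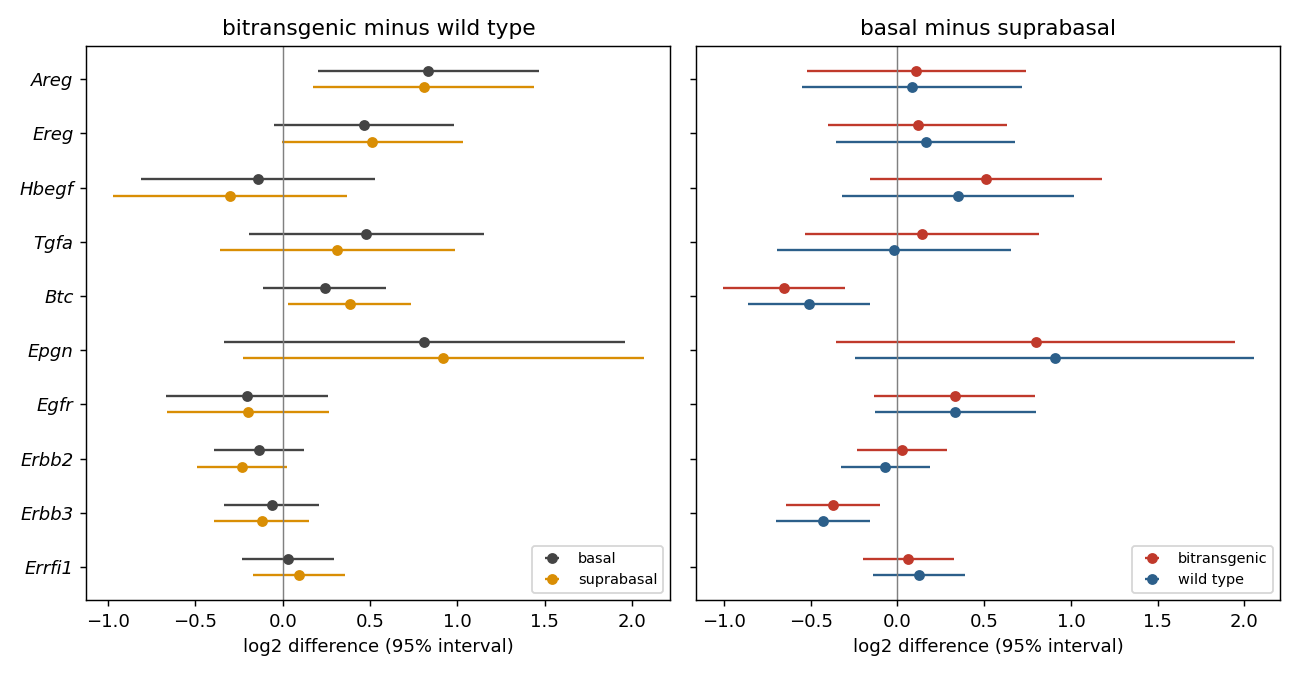
Log2 difference of each gene (horizontal axis, with its 95% interval from the limma fit) for bitransgenic minus wild type in each layer at left and for basal minus suprabasal in each genotype at right. The intervals of Areg in both layers and of Btc in suprabasal cells lie above 0 at left, those of Btc and Erbb3 lie below 0 at right in both genotypes, and none of the differences shown has an adjusted p under 0.05.

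From layer to layer the family divided. Btc and Erbb3 had the lower signal in basal cells of both genotypes, Epgn, Hbegf and Egfr the higher mean, and Areg, Ereg, Tgfa, Erbb2 and Errfi1 differed little. Within a genotype no gene of the 10 was called: 0 in bt cells, where 0% of clusters were called and 7.45% had an unadjusted p under 0.05, and 0 in wt cells, where 1.45% were called. At an unadjusted p under 0.05 there were 2 of 10 in each genotype, Btc and Erbb3, and the share of all clusters in wt cells was 22.8%. The methods' t-test called 0 of 10, with 3 and 1 at an unadjusted p under 0.05 in bt and wt cells. Averaged over genotypes, 1 of 10 was called, Btc, which was lower in basal cells, and 1.17% of all clusters were called (0.694% lower in basal cells). At an unadjusted p under 0.05 there were 4 of 10 (Btc, Erbb3, Epgn and Egfr), against 19.6% of all clusters. The interaction test, which asks whether the layer difference depends on genotype, called none of the 10; in it 0% of clusters were called, 10.2% had an unadjusted p under 0.05, and the smallest limma adjusted p of the 10 was 0.859 (Btc).

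Btc fell in basal cells on average over the genotypes, by 0.58 ± 0.11 on the log2 scale (SE; limma adjusted p = 0.0424). In bt cells its signals were 6.50, 6.70 and 6.39 in basal against 7.11, 7.18 and 7.26 in suprabasal cells, and in wt cells 6.42, 6.27 and 6.18 in basal against 6.37, 6.96 and 7.07 in suprabasal cells. The bt layers did not overlap, and the wt layers overlapped through the suprabasal array of code X667_06. Among the 5 codes measured in both layers Btc was lower in basal cells in 4, by up to 0.89, and differed by 0.05 the other way in code X667_06. All values lay under the background mark, so only the direction of a dim signal is described. The call was lost when each array was centred on its median (limma adjusted p = 0.0604), under cyclic loess scaling (0.0575), without both X721_05 arrays (0.137), with a term for melanocyte markers (0.999) and on leaving out any of 10 of the 12 arrays.

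Erbb3 was lower in basal cells in all 5 codes measured in both layers, by 0.08 to 0.50. Its signals were 9.19, 9.29 and 9.12 in bt basal against 9.69, 9.37 and 9.65 in bt suprabasal cells, and 9.06, 9.40 and 9.33 in wt basal against 9.48, 9.84 and 9.75 in wt suprabasal cells. The layers did not overlap in either genotype. The log2 difference was −0.37 in bt (−0.64 to −0.10; limma adjusted p = 0.605) and −0.43 in wt cells (−0.70 to −0.16; limma adjusted p = 0.0886), a fold of 0.774 and 0.744. Averaged over genotypes it was −0.40 ± 0.09 (SE) and narrowly missed the threshold (limma adjusted p = 0.0562). The labels do not say that a shared code pairs arrays. With code as a replicate block, which takes this as given, Erbb3 passed (−0.39, limma adjusted p = 0.0326), as did Btc (0.0275).

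Erbb3 is known as a receptor of keratinocytes and also of the neural crest lineage, which includes melanocytes. By Pearson correlation over 12 arrays, the genes most like Erbb3 among 3262 candidates with a mean above the mean mark were Tyrp1 (r = 0.935), an enzyme of melanin synthesis, Vim (0.918), the vimentin gene, and Mlana (0.914), a melanosome protein. The layers stand apart in both measures, so the values within the 6 suprabasal arrays are of more use: there Erbb3 and the mean signal of the 8 melanocyte markers correlated at r = 0.888. The summed melanocyte signal, in unlogged units, was 629 to 1261 on bt basal and 556 to 851 on wt basal arrays, against 2117 to 30750 on bt suprabasal and 9202 to 26290 on wt suprabasal arrays. The bt suprabasal array of code X667_05 had both the lowest suprabasal melanocyte sum, 2117, and the lowest suprabasal Erbb3, 9.37. Without that array the mean layer difference of Erbb3 was −0.45 (limma adjusted p = 0.0226), and with a term for the melanocyte level it was 0.03 (limma adjusted p = 0.999). That term moves with the layer itself, and with it no cluster was called between layers, so layer and melanocyte level cannot be told apart here. The 4 Schwann cell markers, the other neural crest derivative listed, were above the mark on no array.

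**Figure D3:**
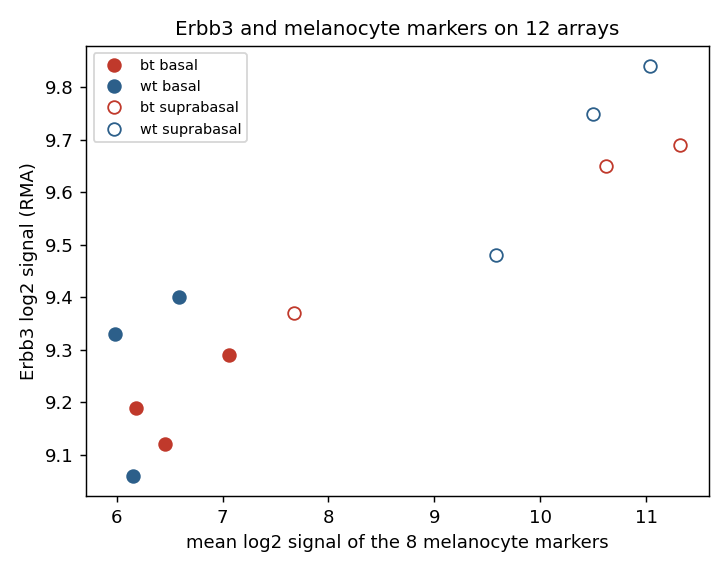
Erbb3 log2 signal (vertical axis) against the mean log2 signal of the 8 melanocyte markers (horizontal axis) on each of 12 arrays; red is bitransgenic, blue wild type, filled basal and open suprabasal. The suprabasal arrays lie to the right at 7.68 to 11.3, and the suprabasal array with the lowest melanocyte level (7.68) has the lowest suprabasal Erbb3, 9.37.

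Epgn had the largest layer difference of the family in the basal direction. In bt cells it was 9.16, 9.72 and 9.42 in basal against 7.52, 9.50 and 8.89 in suprabasal cells, and in wt cells 8.26, 9.51 and 8.10 in basal against 7.77, 8.34 and 7.04 in suprabasal cells. Layers overlapped in both genotypes, yet basal was higher in all 5 codes, by 0.22 to 1.64. The mean difference was 0.85 ± 0.37 (SE; limma adjusted p = 0.235), a fold of 1.81. With a term for each array's background mark, an alternative added after seeing the data, the difference was 0.80 with a limma adjusted p of 0.0127. With the melanocyte term, also added, it was −0.09 (limma adjusted p = 0.999).

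Hbegf and Egfr were also higher in basal cells in all 5 codes, by 0.06 to 0.86 and by 0.01 to 0.92. Hbegf in bt cells did not overlap between layers, at 9.57, 9.24 and 9.41 in basal against 8.71, 9.18 and 8.80 in suprabasal cells, and in wt cells it did. Its mean difference was 0.43 ± 0.21 (SE; limma adjusted p = 0.298), a fold of 1.35. Egfr in wt cells did not overlap, at 9.92, 9.92 and 10.16 in basal against 9.89, 9.52 and 9.59 in suprabasal cells, and in bt cells it overlapped by 1 suprabasal array. Its mean difference was 0.33 ± 0.15 (SE; limma adjusted p = 0.251), a fold of 1.26. Its lowest value, 8.86, was that of the bt suprabasal array X721_05, on which the basal keratinocyte markers were also lowest (mean log2 signal 9.66, and 4 of 8 above the mark) and the background mark (8.81) and the summed melanocyte signal (30750) highest. Over the 6 suprabasal arrays Egfr correlated with the mean melanocyte level at −0.63 and Hbegf at −0.56. The same correlation was −0.61 for Epgn, −0.56 for Tgfa, −0.56 for Areg and −0.455 for Ereg. It was −0.14 for Erbb2, 0.07 for Btc, 0.20 for Errfi1 and 0.888 for Erbb3. With the melanocyte term the mean layer difference was −0.38 for Egfr and −0.44 for Hbegf (limma adjusted p = 0.999 for both). That term moves with the layer itself, so this fit cannot tell the direction of the layer difference.

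Layers did not overlap for 3 of 10 genes in bt cells, where 12.4% of all clusters did not: Hbegf was higher in basal cells (8.08% of clusters) and Btc and Erbb3 were lower (4.27%). They did not overlap for 2 of 10 in wt cells, where 27.5% of all clusters did not: Egfr was higher in basal cells (7.38%) and Erbb3 lower (20.2%). The other genes lay close together: the mean layer difference was 0.10 for Areg (−0.35 to 0.54), 0.14 for Ereg (−0.23 to 0.51), 0.06 for Tgfa (−0.41 to 0.54), −0.02 for Erbb2 (−0.20 to 0.16) and 0.10 for Errfi1 (−0.09 to 0.28). Errfi1, measured at 9.28, 8.87 and 9.20 in bt basal, 8.98, 9.0 and 9.28 in wt basal, 9.14, 8.96 and 9.06 in bt suprabasal and 9.01, 8.82 and 9.05 in wt suprabasal cells, spread least over the 4 groups, and all its groups overlapped.

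Ordered by group mean, Areg and Ereg ran from wt suprabasal (7.42 and 6.44) over wt basal (7.50 and 6.61) and bt suprabasal (8.22 and 6.96) to bt basal (8.33 and 7.07). Epgn ran from 7.72 in wt suprabasal over 8.62 in wt basal and 8.64 in bt suprabasal to 9.43 in bt basal cells. Egfr ran from 9.47 in bt suprabasal over 9.67 in wt suprabasal and 9.80 in bt basal to 10 in wt basal cells. Erbb3 ran from 9.20 in bt basal over 9.26 in wt basal and 9.57 in bt suprabasal to 9.69 in wt suprabasal cells. Neighbouring groups in these orders overlapped, with 1 exception, bt basal and wt basal Egfr, whose difference was not called.

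The ligands Areg, Ereg, Epgn and Tgfa moved together from array to array. Their 6 pairwise Pearson correlations over the 12 arrays were 0.809 to 0.954, and after each group's mean was taken off they were 0.846 to 0.978. The arrays share 7 codes and 1 normalisation, and 3 of the 4 genes are neighbours on chromosome 5 but Tgfa is not. Within bt basal and bt suprabasal cells the X721_05 array was the lowest for all 4 genes. Within wt basal and wt suprabasal cells the X682_11 array was the highest for all 4. Btc, the fourth gene of the chromosome 5 group, did not share this course, with correlations of −0.16 to 0.28 against the same genes. Hbegf ran at −0.43 to −0.05 against them, and at −0.76 against Erbb3. Errfi1 ran at −0.71 to −0.60 against the 4 ligands once group means were taken off.

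The same arrays differed in their background mark. Its correlation over 12 arrays was −0.67 with Areg, −0.75 with Ereg, −0.81 with Epgn and −0.82 with Tgfa, and −0.74, −0.76, −0.75 and −0.79 without the 2 arrays whose marks lay farthest from the median. Of all clusters, 1.45% had a correlation below −0.8 with the mark and 1.7% had one above 0.8. In bt cells the mark was lowest on the X667_05 arrays (8.08 basal, 8.04 suprabasal) and in wt cells on the X682_11 arrays (8.25 and 8.21). With the mark as a term, the bt minus wt difference over layers was 0.66 for Areg, 0.34 for Ereg, 0.46 for Epgn and 0.20 for Tgfa, with limma adjusted p between 0.358 and 0.709. The part of the mark in these differences was not tested further.

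**Figure D4:**
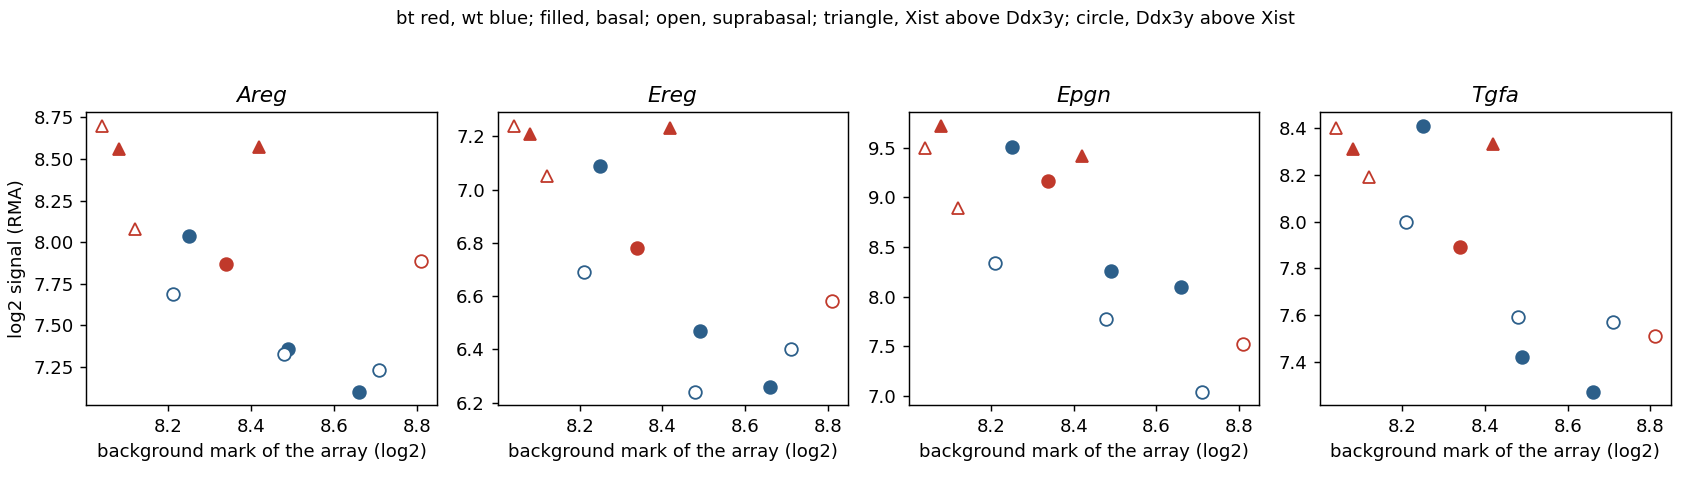
Log2 signal of Areg, Ereg, Epgn and Tgfa (vertical axes) against the background mark of the same array (horizontal axes, log2) on 12 arrays; red bitransgenic, blue wild type, filled basal, open suprabasal, triangles Xist above Ddx3y. Signals of the 4 ligands tend to be lower on arrays with a higher mark, with a Pearson r from −0.67 (Areg) to −0.82 (Tgfa), but single arrays depart from this.

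By the same measure of likeness, the genes nearest to Areg were Nars (r = 0.943), Grpel1 (0.942) and Ccl20 (0.942), and those nearest to Tgfa were Hr (0.969), Nars (0.963) and Atp2a2 (0.962). Epgn was nearest to Smtn (0.990), Stip1 (0.983) and Ppm1g (0.983). Hbegf was nearest to Dusp14 (0.952), Rnu11 (0.946) and Emp1 (0.897). Egfr was nearest to Il13ra1 (0.988), Grhl2 (0.987) and Klk10 (0.978), and Erbb2 to Jup (0.911), Parl (0.901) and Perp (0.900), of which Jup and Perp encode desmosomal proteins. Errfi1 was nearest to Hadhb (0.876), Rel (0.865) and Tnfaip3 (0.845). Ereg and Btc, never above the mark, were not matched.

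The other genes of the pathway were taken from 5 lists. Among 6 other family genes (Egf, Nrg1 to Nrg4 and Erbb4), none was above the mark on any array and none was called in any comparison. Between layers the smallest p were those of Erbb4, a receptor, at 4.67 in bt basal, 4.65 in wt basal, 5.11 in bt suprabasal and 5.27 in wt suprabasal cells (limma adjusted p = 0.095), and Nrg4, a ligand of ERBB4 (limma adjusted p = 0.168). Among 5 genes of ligand release none was called. Rhbdf2, an iRhom that carries ADAM17 to the surface, averaged 8.08 in bt basal, 7.80 in wt basal, 8.20 in bt suprabasal and 8.06 in wt suprabasal cells. It had the smallest p in the list both for layer (−0.19, limma adjusted p = 0.197) and for genotype (0.21, limma adjusted p = 0.503). Timp3, an inhibitor of such proteases, averaged 8.81, 9.06, 8.51 and 8.55 in the same order of groups.

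Among 17 negative regulators 1 was called, between layers, where 1.45% of all clusters were called in wt cells and 1.17% over both genotypes. This gene was Spred2, a suppressor of the RAS cascade. It averaged 8.92 in bt basal, 9.29 in wt basal, 8.42 in bt suprabasal and 8.53 in wt suprabasal cells. It rose in basal cells, by 0.76 ± 0.15 on the log2 scale in wt (SE; limma adjusted p = 0.0463) and by 0.63 ± 0.11 over both genotypes (limma adjusted p = 0.0346). The wt call was lost in 14 of 23 other settings, among them cyclic loess (limma adjusted p = 0.0702), the methods' t-test (0.19), the melanocyte term (difference 0.23, 0.836) and leaving out any of 9 arrays. The call over both genotypes was lost in 11 of 21, namely the melanocyte term (difference 0.15, limma adjusted p = 0.999), without both X721_05 arrays (0.116) and on leaving out any of 9 single arrays. Between genotypes none of the 17 was called, and Cblb, a ubiquitin ligase that acts on activated receptors, had the smallest p (−0.41, limma adjusted p = 0.455). Among 22 measured genes of signal relay none was called, and Akt1, a kinase of the PI3K pathway, differed by 0.15 between layers (limma adjusted p = 0.0783). Between genotypes the smallest p were those of Araf (−0.21, limma adjusted p = 0.453) and Pik3r1 (−0.64, limma adjusted p = 0.497), the regulatory subunit of PI3 kinase.

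Among 10 measured response genes, which growth factor signalling is known to induce, none was called. Between layers 8 had a mean above 0 and 2 below, with a median difference of 0.25 against −0.01 over all clusters. Phlda1 averaged 8.47 in bt basal, 8.57 in wt basal, 9.11 in bt suprabasal and 9.31 in wt suprabasal cells (−0.69, limma adjusted p = 0.0721), and Myc differed by 0.32 (limma adjusted p = 0.125). Between genotypes, on average over layers, 8 lay below 0 and 2 above, with a median of −0.13 against 0.01 over all clusters. The 2 above were Etv4 (0.66 in basal and 0.38 in suprabasal cells) and Etv5 (0.31 and 0.47). In basal cells alone 4 lay above 0 and 6 below. Myc averaged 9.27 in bt basal against 9.68 in wt basal and 9.0 in bt suprabasal against 9.32 in wt suprabasal cells (−0.36, limma adjusted p = 0.453), and the immediate-early gene Egr1 8.92 against 9.51 and 8.72 against 9.33 (−0.60, limma adjusted p = 0.497). For comparison, the median genotype difference of the 10 family genes was 0.19, with 6 above 0.

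**Figure D5:**
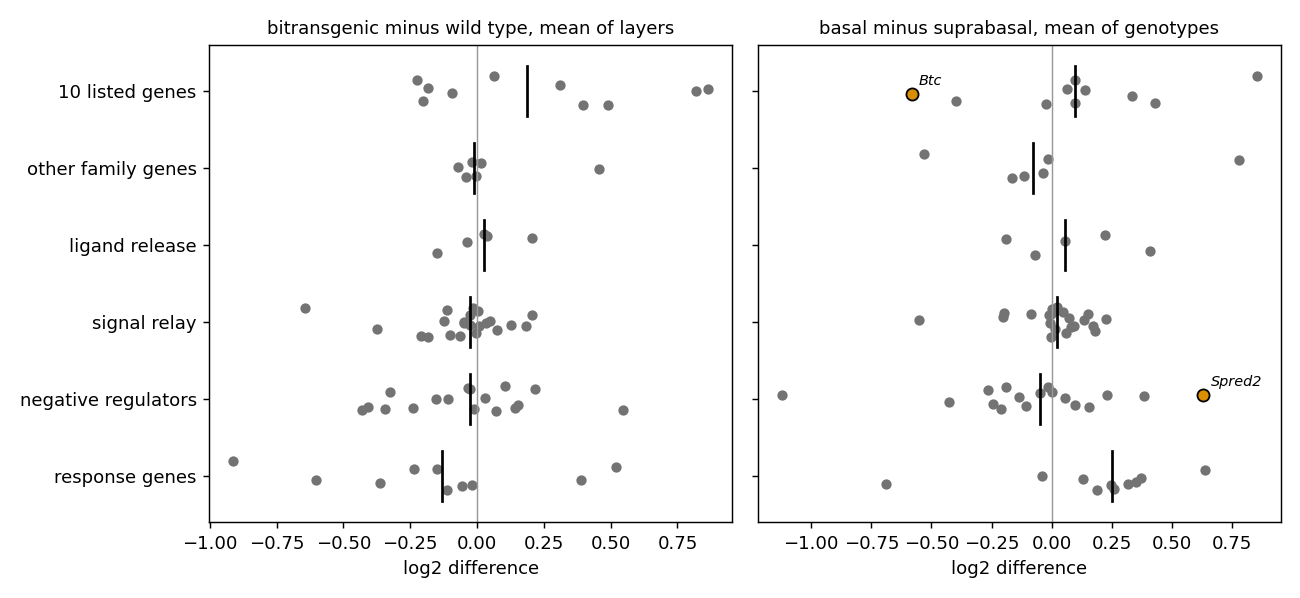
Log2 difference of each measured gene (1 point each, horizontal axis) in the family and the 5 pathway lists, for bitransgenic minus wild type averaged over layers at left and basal minus suprabasal averaged over genotypes at right; black bars are list medians. The orange points, Btc at −0.58 and Spred2 at 0.63, are the genes with an adjusted p under 0.05, both between layers.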

How the data were processed

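The 12 arrays carry keratinocytes of 4 groups, which the sample titles give. Deposited values are log2 signals, 1 for each cluster, for which the submitters' processing notes name Affymetrix Expression Console, RMA and mm10. RMA gives all arrays 1 distribution, which removes any shift common to most clusters. Per the file headers, the authors' table adds a score per comparison, a signed fold of unlogged group means with a minus where the first group is lower, and p-values and q-values; it was used for Areg only.

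Control and normalization sets (6732 of 72688, 9.26%) were left out. Where several clusters carried the same single symbol, the brightest over 12 arrays stood for the gene. The deposited file names the cluster of Areg, and the platform annotation used here does not list it. limma fitted 4 group means to all arrays over 65956 clusters, dim ones included, moderated by empirical Bayes, and p-values were adjusted by Benjamini and Hochberg's method. Per pathway list and comparison, up to 4 called genes were to be named, and otherwise up to 2 by smallest p. Not all genes that the rule selects are named in the text. Members and lists were chosen with earlier results of these data known. Alternatives were median centring, cyclic loess, brighter clusters, trended robust moderation, code as a replicate block, a fit of the 2 groups alone, the methods' t-test, a sex term, and leaving out single arrays. Terms for the mark and for melanocyte level, and removal of both X721_05 arrays, were chosen after seeing the data.

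Codes were taken to pair arrays from the data, not the labels. In 5 same-code pairs deviations from group means correlated at 0.136 to 0.533, with a median of 0.269. Over 49 pairs differing in code and group they correlated at −0.425 to 0.485, with a median of −0.066, so the ranges overlap. Promoters are from RefSeq (GRCm38.p6). Of the pathway lists, Hras and Ccnd1 had no cluster of their own. Versions were R 4.3.3, limma 3.58.1 and the R package data.table (1.17.8), with Python 3.11.15, pandas 2.3.3, numpy 2.4.6 and matplotlib 3.10.9 for tables and figures.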

Additional observations from a re-analysis of the deposited data

How the results depend on the processing

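Between genotypes, 0 of the 10 genes were called under every alternative run, in both layers and on average. In wt cells between layers, 0 were called, but 1 (Epgn) with a term for the background mark, and 0 to 1 on leaving out an array. Averaged over genotypes, the count of 1 between layers became 0 after median centring, 0 under cyclic loess, 0 with the melanocyte term, 0 without both X721_05 arrays, 2 (Btc and Erbb3) among brighter clusters, 2 with the replicate block, 3 (with Epgn) with the mark term, and 0 to 2 on leaving out an array. The replicate block changed no other call of the 10 genes. The count of all clusters called between layers moved as well. In wt cells it was 957, but 342 after centring, 262 under loess, 1520 among brighter clusters, 476 with other moderation, 3600 with the replicate block, 4 with only the groups compared, 0 by the methods' t-test, 4391 with the mark term, 0 with the melanocyte term and 0 to 2903 on leaving out an array. Averaged over genotypes it was 769, but 1550 among brighter clusters, 2428 with the replicate block, 1195 with the sex term, 3972 with the mark term, 0 with the melanocyte term, 1 without both X721_05 arrays and 5 to 2670 on leaving out an array. For genotype it was 0, but 5 in each layer and on average without both X721_05 arrays, and 87 in basal cells without the wt array X667_06; between bt layers it was 0, but 126 without the suprabasal array X667_05.

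Log2 differences that changed sign were small or rested on the melanocyte term. For bt minus wt, Errfi1 in basal cells was −0.02 after centring and −0.052 without both X721_05 arrays, and on average −0.001 without them. Tgfa was −0.092 in suprabasal cells and −0.01 on average with the sex term, and Egfr in suprabasal cells was 0.10 without both X721_05 arrays. For basal minus suprabasal, centring gave Tgfa 0.077 and Erbb2 0.027 in wt cells and Erbb2 0.023 on average, loess gave Erbb2 −0.01 in bt cells, and leaving out both X721_05 arrays gave it −0.11. With the melanocyte term, wt layers gave Areg −0.30, Hbegf −0.62, Epgn −0.13, Egfr −0.46 and Erbb3 0.048. Under that term, bt layers gave Areg −0.19, Ereg −0.008, Hbegf −0.26, Tgfa −0.085, Epgn −0.036, Egfr −0.31, Erbb2 −0.11 and Erbb3 0.009. On average it gave Areg −0.24, Hbegf −0.44, Tgfa −0.20, Epgn −0.085, Egfr −0.38 and Erbb3 0.029. The causes were not tested.

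Leaving out 1 array at a time gave ranges that cross 0, of −0.45 to 0.15 for Hbegf, −0.17 to 0.005 for Erbb3 and −0.052 to 0.15 for Errfi1 between genotypes in basal cells, and −0.37 to 0.10 for Egfr in suprabasal cells. Between wt layers the ranges were −0.19 to 0.28 for Areg, −0.078 to 0.34 for Ereg, −0.38 to 0.20 for Tgfa and −0.14 to 0.043 for Erbb2. Between bt layers they were −0.057 to 0.35 for Areg, −0.072 to 0.26 for Ereg, −0.12 to 0.33 for Tgfa, −0.048 to 0.13 for Erbb2 and −0.018 to 0.19 for Errfi1. On average over genotypes they were −0.038 to 0.22 for Areg, −0.12 to 0.17 for Tgfa and −0.059 to 0.035 for Erbb2. The number of arrays, 3 a group, limits the precision of all these values. Dim signals limit those of Areg, Ereg, Tgfa and Btc and, on part of the arrays, those of Epgn.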

Other observations

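The platform annotation also gives the name Ereg to a second cluster on the opposite, minus strand. This cluster was not used for Ereg. Its log2 signal was 5.46 to 5.53 in bt basal, 5.46 to 5.55 in wt basal, 5.51 to 5.70 in bt suprabasal and 5.33 to 5.56 in wt suprabasal cells, under the background mark on every array and without the spread between arrays of the plus-strand Ereg cluster.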
